A study of Homo sapiens with 45 samples.

Results

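Complex I subunit genes were followed through 45 single-cell transcript profiles. The members are 32 named nuclear-encoded NDUF rows out of the 23045 rows of the deposited tables, and all 32 were found by symbol. They comprise 6 core subunits (NDUFS1, NDUFS3, NDUFS7, NDUFS8, NDUFV1 and NDUFV2) and 26 accessory subunits. The cells came from the established line H1 (human embryonic stem cells, passage 40), kept without feeder cells on Matrigel in mTESR1 medium. There were 12 fixed cells (DAPI+) and 15 live cells (DAPI-) prepared by FRISCR, which recovers RNA after fixation, and 7 fixed cells (DAPI+) and 11 live cells (DAPI-) lysed in Triton X-100. The labels name no genetic change, and all cells were made into Smart-seq2 cDNA and Nextera XT libraries. The protocol text for extraction speaks of cortical tissue, and FRISCR cells carry the code PLRC in their titles and Triton cells RLT. Separate cultures are not named, so each group counts as 1 sample, and the cells are not replicates of a treatment. No difference between groups could therefore be tested, and the values below describe these libraries.

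Complex I (NADH:ubiquinone oxidoreductase) is the entry point of electrons into the mitochondrial respiratory chain. Its matrix arm takes electrons from NADH onto a flavin and passes them along iron-sulfur clusters to ubiquinone, and its membrane arm pumps protons. The core subunits are shared with bacterial enzymes and carry out the catalysis, whereas the accessory subunits surround them and are needed for assembly and stability. The core subunits of the membrane arm are encoded in mitochondrial DNA, and no row named MT- was listed, so those subunits were not analysed here. Primed human embryonic stem cells draw much of their energy from glycolysis while keeping an assembled respiratory chain. NDUFA4 kept its name from complex I but has since been assigned to complex IV, and it is counted here with the accessory genes, as listed.

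Nuclear genes of the respiratory chain are known for promoters with motifs of the factors NRF1, GABPA (an ETS factor) and YY1. RefSeq promoter windows (GRCh38.p14, 250 bases before to 50 after the start site) were matched for 27 of the 32 genes and were not matched for NDUFA4, NDUFB5, NDUFB9, NDUFC2 and NDUFS5. On either strand, the NRF1 motif GCGCATGCG was present in 4 of the 27 windows (14.8%), against 1.92% of all 35116 windows of that length. The ETS motif CCGGAAGT was present in 2 (7.41%, against 4.14%) and the YY1 motif AAGATGGCG in 3 (11.1%, against 1.75%). A match is a description of letters and not a bound site, and the windows without a match show only that those letters are absent there. The 4 stretches below, in transcript direction with the motif in capitals, are shown because they lie wholly upstream of the start site. They also include NDUFS1 and NDUFB4, which were among the 3 lowest and 3 highest folds of fixed over live Triton cells. A link between motif and fold was not tested. The stretches come from chr2:206159563-206159642 (minus strand, NDUFS1), chr19:1383793-1383872 (plus strand, NDUFS7), chr3:120596137-120596216 (plus strand, NDUFB4) and chr5:1801321-1801400 (plus strand, NDUFS6).
NDUFS1 (core, ETS): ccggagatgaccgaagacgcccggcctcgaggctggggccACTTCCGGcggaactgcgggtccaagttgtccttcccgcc
NDUFS7 (core, NRF1): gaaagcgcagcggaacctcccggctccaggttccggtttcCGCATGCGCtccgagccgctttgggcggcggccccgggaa
NDUFB4 (accessory, NRF1): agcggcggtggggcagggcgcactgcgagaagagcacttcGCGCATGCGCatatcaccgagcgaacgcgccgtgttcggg
NDUFS6 (accessory, NRF1): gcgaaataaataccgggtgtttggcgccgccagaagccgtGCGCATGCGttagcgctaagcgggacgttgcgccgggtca
The capitals of NDUFS1 and NDUFS7 are the motif read on the opposite strand, and those of NDUFB4 hold it on both strands, overlapping by all but the outer bases.

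Total counts per cell ranged from 3388417 to 6594043. A code shared by the titles splits each group into 2 library sets, which are given beside results as set 1 and set 2. Markers of embryonic stem cells were present in every group, with counts for 8 of 8 genes, and their summed level per cell ran from 1056 to 2022 CPM (counts per 1000000 counts) in fixed Triton cells, against 3671 to 5315 CPM in live Triton cells. Some markers of other cell types were also detected. Of 9 neural or radial glia markers, 5, 7, 4 and 6 had a count in fixed FRISCR, live FRISCR, fixed Triton and live Triton cells, and their summed level had a median of 181, 360.4, 94.9 and 218 CPM per cell in that order. SOX1 and HES5 were at 0 in all groups. Of 7 fibroblast markers, 4, 4, 3 and 4 had a count in the same order, with medians of 553, 688, 246 and 589 CPM, while COL3A1, DCN and LUM were at 0 in all groups. At most 1 of 7 mesoderm and endoderm genes had any count. Fixed Triton cells stood apart from the other groups. The row TVAS5 took 16.2% to 33.0% of their counts, against 2.76% to 13.0% in live Triton cells, and rows named for rRNA took 6.09% to 11.4%, against 0.565% to 1.90%. Live Triton cells in turn differed from live FRISCR cells, where TVAS5 took 0.554% to 1.11% and rows named for rRNA at most 0.0129%. In live Triton cells the median for TVAS5 was 3.28% in set 1 and 8.07% in set 2. After each cell was thinned to 1000000 counts, 4121 to 6637 genes had a count in fixed Triton cells, against 8803 to 10244 in live Triton cells. The part of these differences in the Triton results below was not tested.

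Every one of the 32 genes was expressed in these cells, and the highest stood 34.7-fold above the lowest per transcript length in fixed FRISCR, 33.0-fold in live FRISCR, 89.4-fold in fixed Triton and 35.0-fold in live Triton cells. In live FRISCR cells the mean TPM (transcripts per 1000000, a level corrected for length) ran from 35.2 for NDUFA10 to 1159 for NDUFS5, with a median of 326 over the 32 genes, against 36.7 over all genes with at least 20 CPM. The core genes, which include those for the flavin and iron-sulfur subunits, had a median of 211 TPM and the accessory genes 329 TPM. Among the core genes NDUFV2, an iron-sulfur protein next to the flavin, was the highest, at 540.2 ± 131 TPM (SD over 15 cells). NDUFV1, which binds NADH and the flavin, had 108 ± 55.3 TPM, and NDUFS1, the largest iron-sulfur subunit, was the lowest of the core genes at 77.8 ± 51.1 TPM. NDUFS8, NDUFS3 and NDUFS7, which line the path of electrons to ubiquinone, had means of 336, 218 and 205 TPM.

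The highest 3 genes were accessory. NDUFS5, a cysteine-rich protein facing the intermembrane space, had 1266 ± 282 TPM in fixed FRISCR, 1159 ± 212 in live FRISCR, 1276 ± 544 in fixed Triton and 1035 ± 191 in live Triton cells (SD over cells). NDUFA13, also known as GRIM-19, followed with 1072, 972, 1173 and 929.9 TPM in the same order of groups. NDUFB4, a small subunit of the distal membrane arm, had 819, 757, 1329 and 641 TPM, which made it the highest of the 32 in fixed Triton cells alone. In each of the 4 groups NDUFS5 and NDUFA13 differed by less than the larger of their SDs over cells. Over the 32 genes, the order of mean TPM had a Spearman correlation of 0.98 between fixed and live FRISCR cells, 0.87 between fixed and live Triton cells, 0.98 between live FRISCR and live Triton cells and 0.90 between fixed FRISCR and fixed Triton cells. These correlations are across genes of the same libraries, which share each gene's length and composition.

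**Figure D1:**
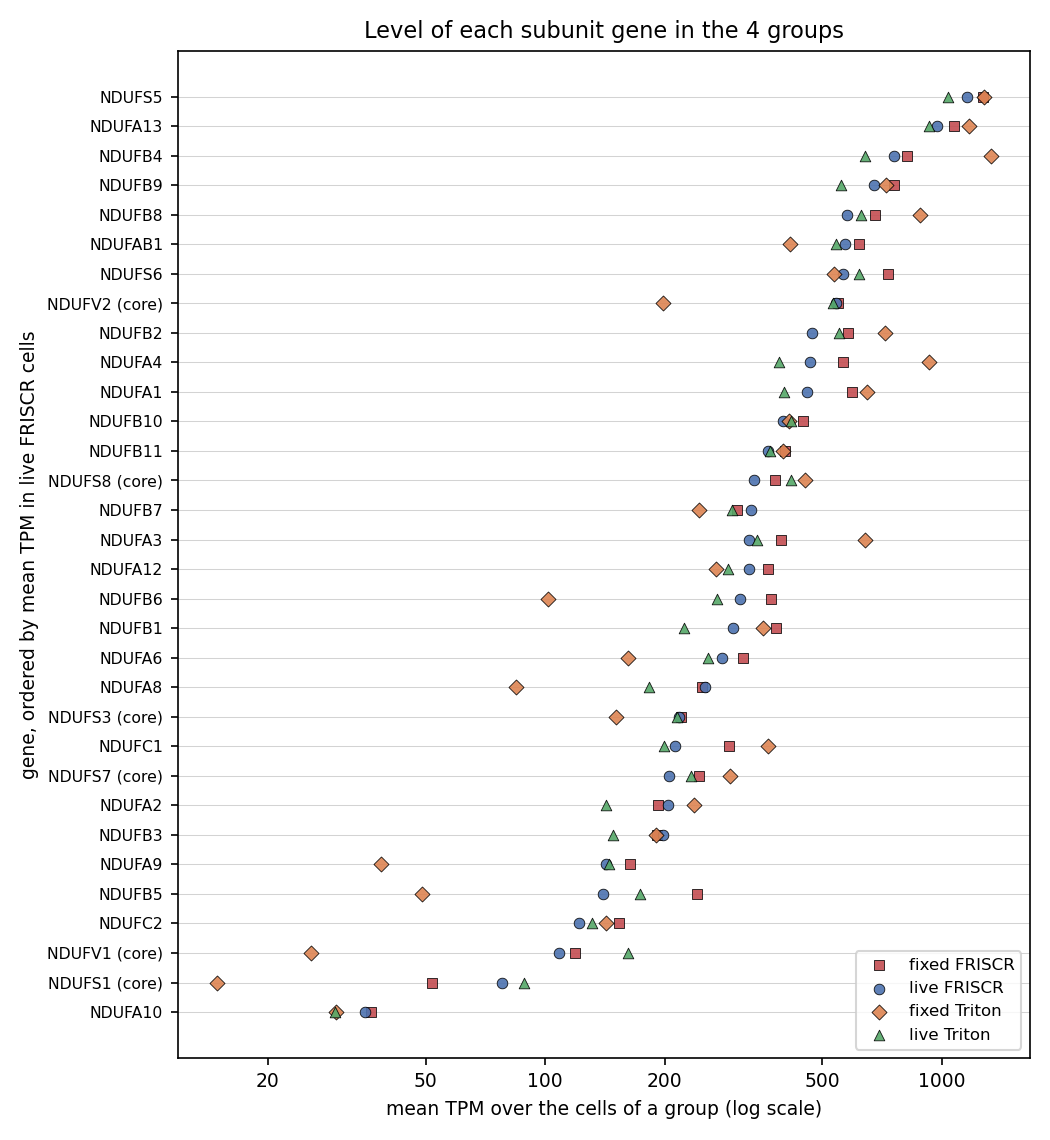
Mean TPM of each of the 32 subunit genes (horizontal, log scale) over the cells of each group, with genes ordered by their level in live FRISCR cells. The markers of fixed FRISCR, live FRISCR and live Triton cells lie close together for most genes, whereas fixed Triton cells lie far to the left for NDUFS1 (14.9 TPM), NDUFV1 (25.7 TPM) and NDUFA9 (38.5 TPM) and to the right for NDUFB4 and NDUFA4.

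In FRISCR cells, the contrast of fixed with live cells addresses what fixation left changed after RNA recovery. The subunit genes were slightly higher in fixed cells, almost without exception. Their median log2 fold of summed CPM was 0.32, against -0.02 over the 7518 genes that reached 20 CPM in fixed or live cells, and 31 of the 32 were above 0 and above that median. None was past 2-fold in either direction, where 3.34% of all genes were more than 2-fold higher and 7.69% more than 2-fold lower. Set 1 alone gave a median of 0.40 and set 2 alone 0.23, and 29 genes were above 0 in both sets. Of the 7518 genes, 3615 were above 0 with all cells and 2114 in both sets. By mean TPM, 27 of the 32 were above 0 and 31 were above the median of all genes.

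The medians of core and accessory genes were near each other in this comparison. The median log2 fold was 0.25 over the 6 core genes and 0.32 over the 26 accessory genes (core minus accessory -0.08, and within the library sets -0.19 and -0.09). All 26 accessory genes and 5 of 6 core genes were above 0. By place in the complex, as assigned from general knowledge of its structure, the median was 0.33 for 11 genes of the matrix arm, 0.35 for 8 of the proximal membrane arm and 0.29 for 12 of the distal membrane arm.

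NDUFS1 was the exception, with 21.4, 73.2 and 434 CPM (lowest, median and highest cell) in 12 fixed FRISCR cells, against 0, 162 and 322 CPM in 15 live FRISCR cells. The ranges overlapped, and 1 of the live cells had no count. The summed level was 1.25-fold lower (1.21 to 1.29) (log2 -0.32), but the log2 fold was -0.44 in set 1 and 0.02 in set 2, so the sign depended on the set. Intervals here and below are exact 95% intervals on summed counts and reflect counting error alone, because PCR copies were not collapsed by molecular identifiers. The next lowest were NDUFB7, a cysteine-rich subunit of the intermembrane space side, with log2 0.01 (86.5 CPM fixed, 86.0 CPM live), and NDUFA2, a matrix subunit with a thioredoxin fold, with log2 0.06. For each of these a single cell decided the sign: the log2 fold was -0.06 for NDUFB7 without fixed FRISCR replicate 2 and -0.03 for NDUFA2 without fixed FRISCR replicate 9. NDUFB3, at 0.09 with all cells, had -0.02 without fixed FRISCR replicate 11.

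At the other end stood NDUFB5, a membrane subunit of the distal arm, with 62.2, 149 and 250.2 CPM in fixed FRISCR cells, against 33.2, 72.2 and 202 CPM in live FRISCR cells. The fixed median lay above the live median, and the ranges overlapped. It was 1.91-fold higher (1.85 to 1.98), with log2 folds of 0.88 in set 1 and 1.01 in set 2. NDUFS6, a zinc-binding subunit of the matrix arm, had 121, 210.4 and 285 CPM in fixed cells, against 60.4, 141 and 263 CPM in live cells, and was 1.45-fold higher (1.41 to 1.49). NDUFB1, a small membrane subunit, had 39.5, 77.3 and 129 CPM in fixed cells, against 30.4, 53.0 and 85.2 CPM in live cells, with log2 0.50. In both genes the groups overlapped.

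Added up per cell, the difference was clearer. The 32 genes together took a median of 0.607% of a cell's counts in fixed FRISCR cells (range 0.452% to 0.70%), against 0.504% in live FRISCR cells (range 0.395% to 0.547%), and 9 of 12 fixed cells lay above every live cell. The accessory genes took 0.508%, against 0.410%, with 11 of 12 fixed cells above every live cell. The core genes took 0.0872%, against 0.0809%, and 9 of 12 fixed cells lay within the range of live cells. Of the 32 genes' counts, core genes held a median of 14.5% in fixed FRISCR cells, against 17.0% in live FRISCR cells, with 5 of 12 fixed cells below and 1 above every live cell. The medians of the whole list were 0.580% against 0.466% in set 1 and 0.607% against 0.516% in set 2. A larger share of counts cannot be told apart from a smaller amount of other RNA in the same cells.

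**Figure D2:**
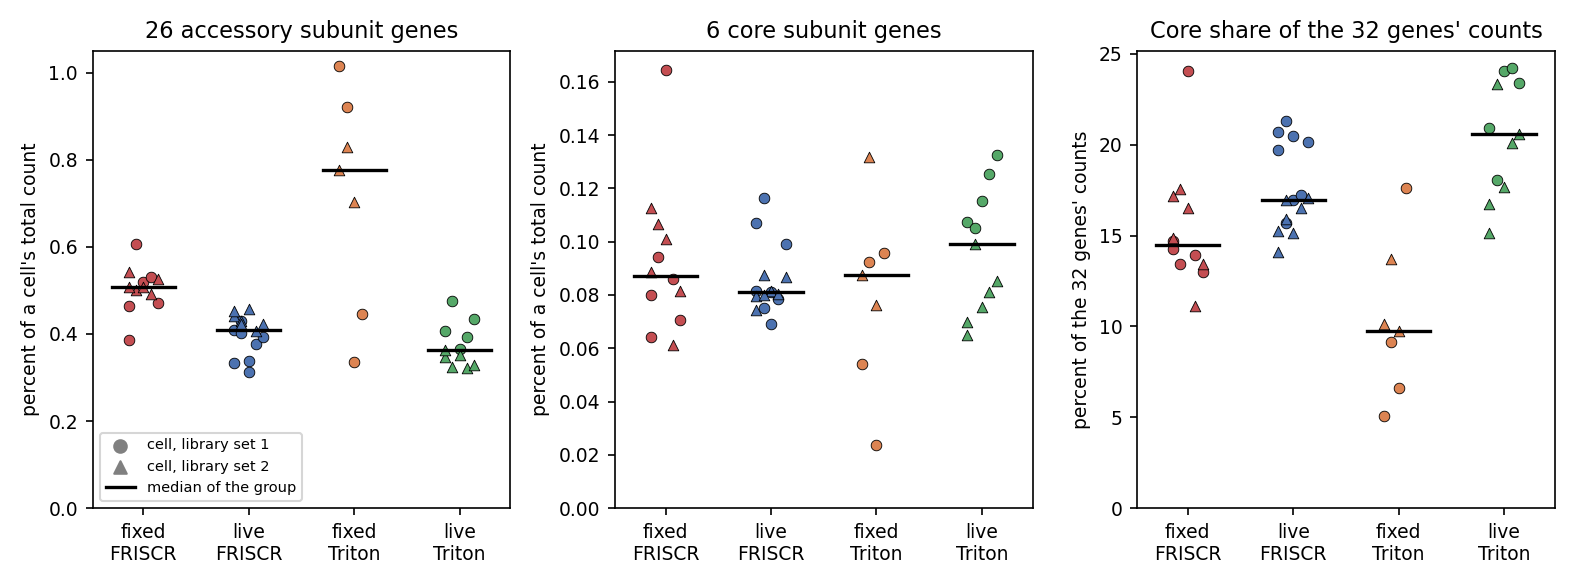
Percent of a cell's total count taken by the 26 accessory genes (left) and the 6 core genes (middle), and percent of the 32 genes' counts that fell on core genes (right). Each point is 1 cell, with circles for library set 1, triangles for set 2 and bars for group medians. The accessory share is higher in fixed than in live cells (medians 0.508% against 0.410% for FRISCR, 0.776% against 0.364% for Triton), and the core part is lowest in fixed Triton cells (median 9.78%).

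The same contrast after plain detergent lysis sets fixed against live Triton cells. Here the subunit genes parted by summed counts. The small accessory genes were mostly higher in fixed cells, whereas NDUFV1 and NDUFS1 of the core were more than 2-fold lower. The median log2 fold was 0.72 over the 32 genes, against -1.50 over the 7256 genes that reached 20 CPM in fixed or live cells. Of the 32, 10 were more than 2-fold higher, where 12.4% of all genes were, and 4 were more than 2-fold lower, where 58.5% of all genes were. All 10 that were higher were accessory genes, and those lower were NDUFV1, NDUFS1, NDUFB5 and NDUFA9. The median was -0.35 over the 6 core genes and 0.83 over the 26 accessory genes (core minus accessory -1.17, and within the library sets -2.09 and -0.91). The core median itself was -1.61 in set 1 and 0.49 in set 2.

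The zero of this comparison depends on the scaling, and a few abundant rows took a large part of the fixed Triton counts. Under total counts the 32 genes had a median of 0.72 and all genes -1.50. Dropping the abundant rows from the totals gave 1.34 and -0.89, TMM factors gave 1.74 and -0.48, median-of-ratios factors gave 1.92 and -0.30, and mean TPM gave 0.12 and -2.00. The counts past 2-fold higher and lower were 10 and 4 by total counts, 22 and 2 without the abundant rows, 24 and 1 with TMM, 25 and 1 with median-of-ratios factors and 2 and 7 in mean TPM. The share of all genes past 2-fold was computed for total counts only, and it too moves with the scaling. The core median, -0.35 by total counts, turned to 0.27 without the abundant rows, 0.67 with TMM and 0.85 with median-of-ratios factors, and was -0.97 in mean TPM, so no direction can be given for the core genes as a class. The accessory median was above 0 in each case, at 0.83, 1.44, 1.84, 2.02 and 0.21. Of the 32 genes, 30 lay above the median of all genes by total counts, NDUFV1 and NDUFS1 being below it, and 30 did so in mean TPM. The other 3 scalings shift all genes alike, so they can change neither that count nor the distance between core and accessory medians.

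NDUFV1, which binds NADH, had 0, 0 and 169 CPM in 7 fixed Triton cells, against 21.8, 157 and 245 CPM in 11 live Triton cells. It had no count in 4 of the 7 fixed cells, and was 4.60-fold lower (4.30 to 4.93). NDUFS1 had 0, 0.228 and 301 CPM in fixed Triton cells, against 52.4, 161 and 465 CPM in live Triton cells. A single fixed cell, replicate 6, held nearly all of its counts, and the other 6 had at most 1.00 CPM. It was 3.67-fold lower (3.47 to 3.88) with all cells (log2 -1.87), and the log2 fold was -9.07 without that cell. Likewise, the log2 fold of NDUFV1 was -2.20 with all cells and -3.85 without fixed Triton replicate 4.

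By summed counts, the other core genes were closer to their live level. NDUFV2 had 0.232, 143 and 328 CPM in fixed Triton cells, against 173, 234 and 445 CPM in live Triton cells, and was 1.70-fold lower (1.64 to 1.76). Its fixed median, and most of its fixed cells, lay below the lowest live cell. NDUFS3 had 0, 6.84 and 426 CPM in fixed cells, against 43.2, 108 and 161 CPM in live cells. The fixed median of NDUFS3 also lay below every live cell. Its fixed cells fell on both sides of the live range, with 3 of the 7 under 5 CPM and 1 at 426 CPM. The log2 fold of NDUFS3 was 0.07 with all cells, -1.75 in set 1 and 1.25 in set 2, and -0.66 without fixed Triton replicate 5. NDUFS7, which holds the last iron-sulfur cluster before ubiquinone, had 0.232, 185 and 388 CPM in fixed cells, against 34.2, 82.1 and 211 CPM in live cells, and was 1.91-fold higher (1.84 to 1.98). NDUFS8 had 66.7, 276 and 535 CPM in fixed cells, against 94.1, 159.8 and 256 CPM in live cells, and was 1.67-fold higher (1.63 to 1.72). For NDUFS7 and NDUFS8 the fixed median lay above the live median while the ranges overlapped.

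**Figure D3:**
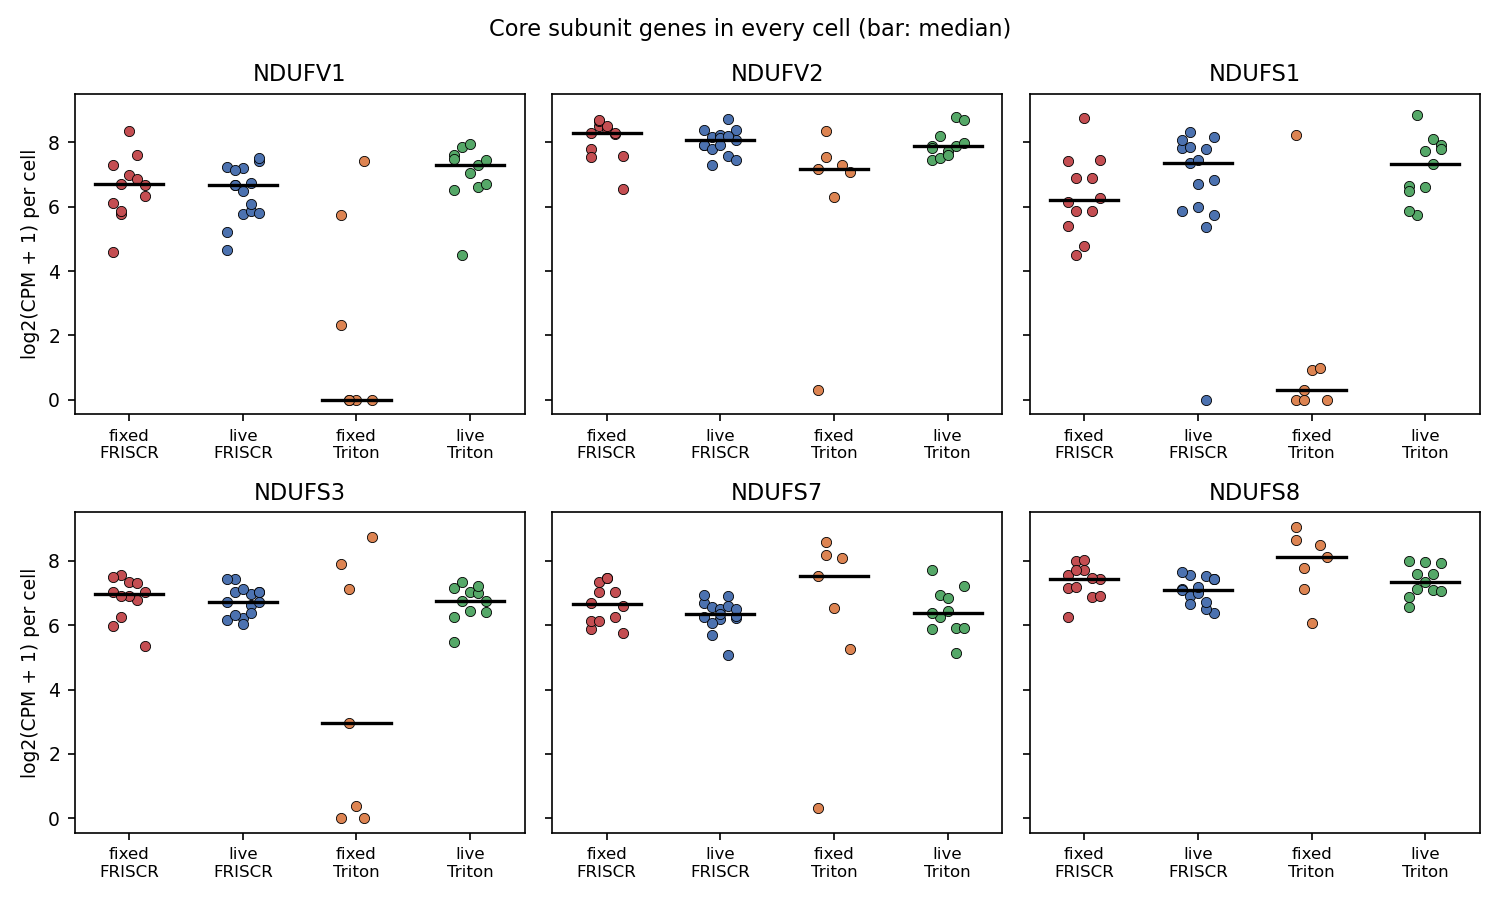
Level of the 6 core genes in every cell, as log2(CPM + 1) on the vertical axis, with a panel per gene, a point per cell and a bar at the group median. In fixed Triton cells most points of NDUFV1 and NDUFS1 lie at or near 0 with 1 or 2 high cells, NDUFS3 is split between low and high cells, and NDUFS8 is detected in all 7.

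Among the accessory genes the highest folds belonged to small proteins. NDUFA4 had 497, 1005 and 3049.8 CPM in fixed Triton cells, against 339.7, 491 and 569 CPM in live Triton cells, and was 3.49-fold higher (3.43 to 3.54). NDUFB4 had 237, 684 and 983 CPM in fixed cells, against 112, 202 and 278 CPM in live cells, and was 3.30-fold higher (3.23 to 3.38). NDUFA3, a small membrane protein of the proximal arm, had 36.2, 142 and 283 CPM in fixed cells, against 31.6, 45.2 and 97.1 CPM in live cells, and was 3.16-fold higher (3.02 to 3.31). In all 3 genes the fixed median lay above the highest live cell, and some fixed cells lay within the live range. NDUFS5 and NDUFA13, the most abundant members, were 2.00-fold higher (1.95 to 2.04) and 2.07-fold higher (2.02 to 2.12).

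A few accessory genes went the other way. NDUFB5 had 0, 0.25 and 197 CPM in fixed Triton cells, against 13.6, 88.8 and 232 CPM in live Triton cells. It had a count in 4 of the 7 fixed cells and was 2.51-fold lower (2.35 to 2.68), with a log2 fold of -1.33 with all cells and -2.48 without fixed Triton replicate 3. NDUFA9, a matrix arm subunit of the short-chain dehydrogenase family, had log2 -1.10, NDUFB6 -0.96, NDUFA8 -0.58 and NDUFA6, of the LYR motif family, -0.13. NDUFA8 had a log2 fold of -2.64 without fixed Triton replicate 1, and NDUFB7 had 0.42 with all cells and -0.21 without fixed Triton replicate 6. By place, the median log2 fold was 0.07 for 11 matrix arm genes (0.53 for its 5 accessory genes), 1.02 for 8 genes of the proximal and 0.83 for 12 of the distal membrane arm. The remaining accessory genes lay between 0.21 (NDUFAB1, the mitochondrial acyl carrier protein) and 1.47 (NDUFA1).

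Per cell, the median share of the 32 genes was 0.863% of counts in fixed Triton cells (range 0.360% to 1.07%), against 0.429% in live Triton cells (range 0.403% to 0.581%), with 5 of 7 fixed cells above and 1 below every live cell. Counted without the abundant rows, the medians were 1.48% and 0.518%. Summed over cells, the accessory genes had 7361 CPM in fixed Triton and 3747 CPM in live Triton cells. Without NDUFA4 they had 5773 and 3292 CPM. The core genes held a median of 9.78% of the 32 genes' counts in fixed Triton cells (range 5.05% to 17.6%), against 20.6% in live Triton cells (range 15.1% to 24.2%), and 6 of 7 fixed cells lay below every live cell. This part is a ratio within a cell and does not depend on its total. In set 1 the medians were 7.87% against 23.4%, and in set 2 10.1% against 18.9%.

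**Figure D4:**
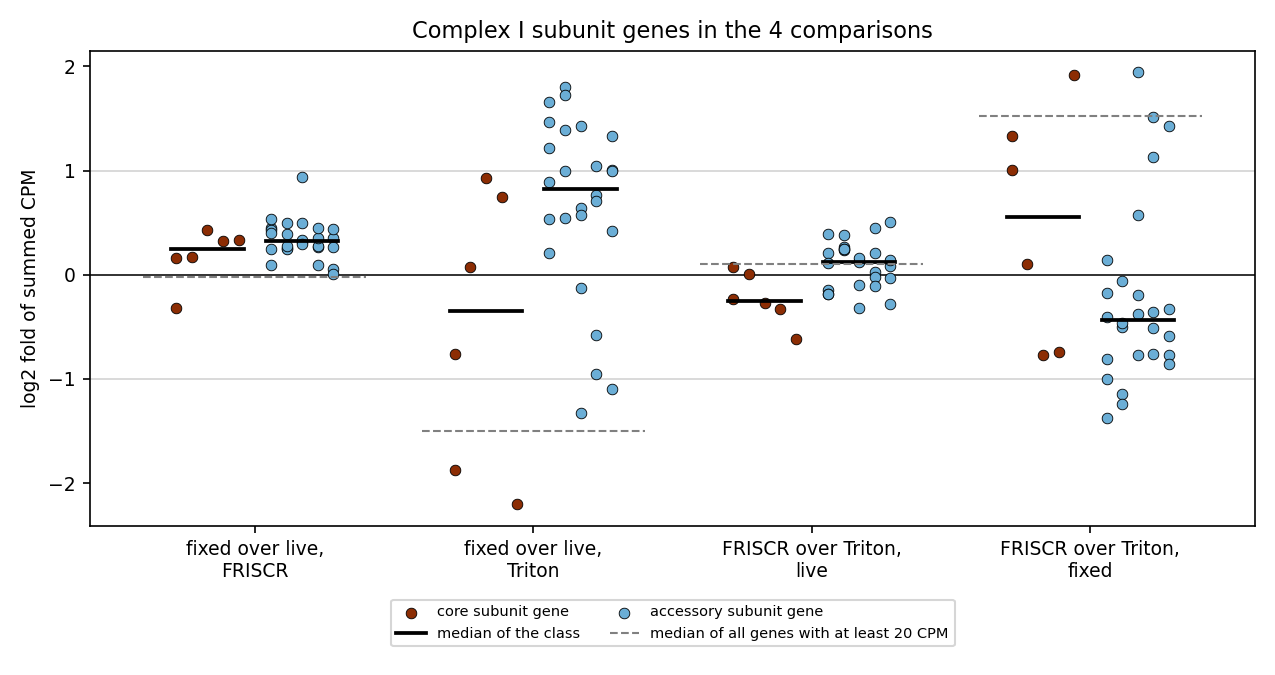
Log2 fold of summed CPM for each of the 32 genes in the 4 comparisons, with core and accessory genes apart, a bar at the median of each class and a dashed line at the median of all genes with at least 20 CPM. Grey lines mark 2-fold. In fixed over live FRISCR cells all but NDUFS1 lie above the median of all genes. The genes spread widely in both comparisons that hold fixed Triton cells.

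Length went along with the folds of fixed Triton cells. The core proteins have a median of 256.5 residues (210 to 727) and the accessory proteins 128.5 (70 to 377), from the principal transcripts of GENCODE 29. Over the 32 genes, the log2 fold of fixed over live cells had a Spearman correlation with residues of -0.69 for Triton cells (-0.67 in set 1, -0.62 in set 2) and -0.31 for FRISCR cells (-0.26 and -0.11), as a description of genes that share the same libraries. In Triton cells, the 24 accessory genes under 200 residues had a median log2 fold of 0.94, and the other 2, NDUFA9 and NDUFA10, had -1.10 and 0.55, beside -0.35 for the 6 core genes, all of which are longer than 200 residues. No core protein is as short as those of the 24 short accessory genes, so subunit class and protein size cannot be told apart among these genes. Transcript lengths of the classes overlapped more, with medians of 998.5 bases for core and 785 for accessory genes. For example, core NDUFS8 has 791 bases and accessory NDUFA4 has 2130. Length was also compared over all genes, as implied by the ratio of the deposited counts to TPM and cut into 5 classes of equal size: 26 of the 32 genes fell in the shortest length class, which had a median log2 fold of 0.02 in Triton cells and held 4 core genes. Relative to the median of their own class, the 32 genes had a median of 0.89, with 26 above and 6 below, the core genes 0.08 and the accessory genes 0.97. In FRISCR cells the same distances were 0.10 over the 32 genes, with 25 above and 7 below, 0.02 for core and 0.11 for accessory genes. The shortest length class of all genes itself had a median of 0.23 in FRISCR cells. With implied length, the Spearman correlation of the 32 log2 folds was -0.56 for Triton cells and -0.15 for FRISCR cells.

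**Figure D5:**
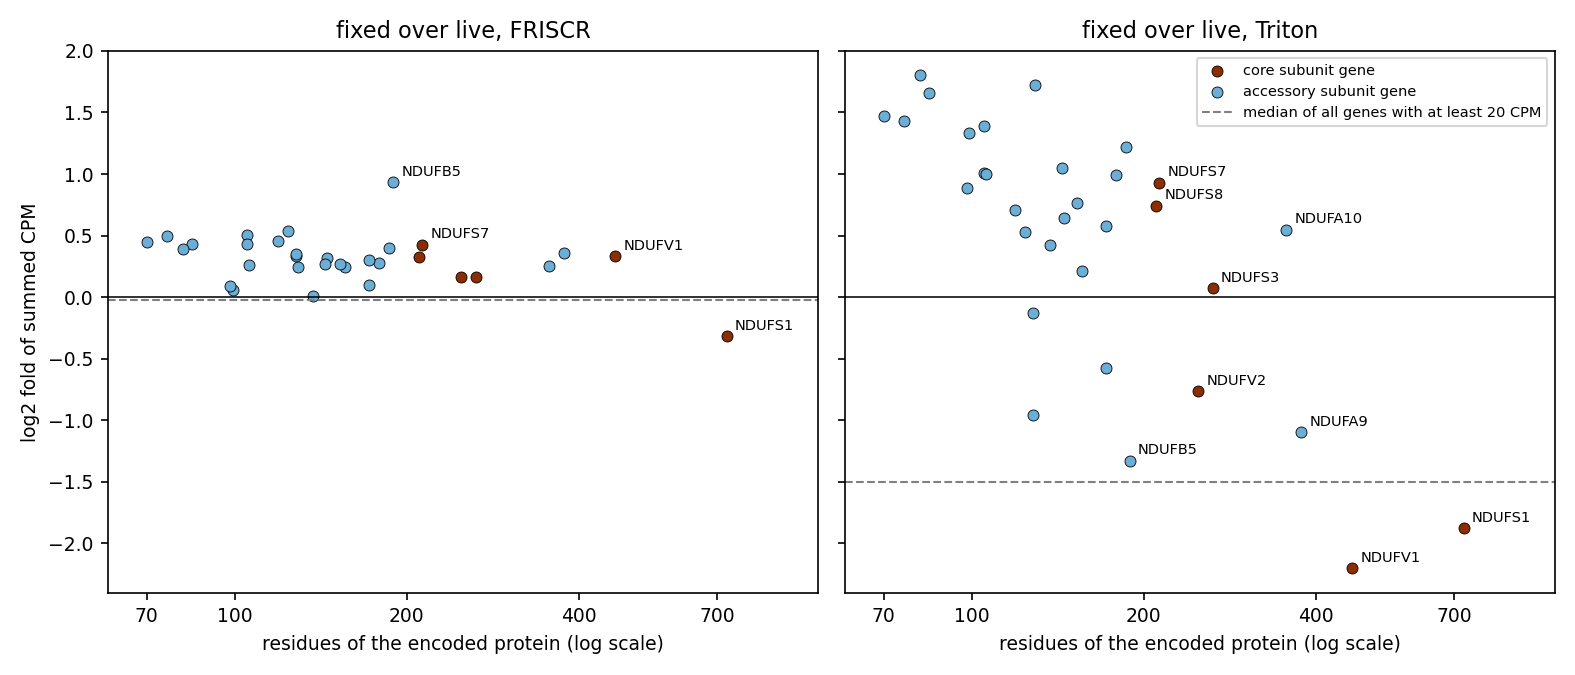
Log2 fold of summed CPM against the number of residues of the encoded protein (log scale) for the 32 genes, for fixed over live FRISCR cells (left) and fixed over live Triton cells (right), with the median of all genes dashed. In Triton cells the folds run from above 1 for the shortest proteins to below -1.5 for NDUFV1 and NDUFS1, and in FRISCR cells all but NDUFS1 lie at or above 0.

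Copies and overlapping genes could affect the counting. In GENCODE 29, 17 of the 32 genes have named pseudogenes, most often NDUFB4 (12), NDUFS5 (6) and NDUFA3 (5), and reads from near-identical copies may have been split or assigned to them. The median log2 fold of fixed over live Triton cells was 0.76 for these 17 genes and 0.71 for the other 15. Exons of 20 genes overlap exons of another gene, and Smart-seq2 does not mark strand, so such reads cannot be told apart. The median was 0.83 for these 20 and 0.56 for the 12 without overlap. Values of genes in either class are uncertain to that extent.

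Without fixation, live FRISCR cells were set against live Triton cells to compare the preparations. The subunit genes were near each other in both. The median log2 fold was 0.08, against 0.10 over all 7447 genes with at least 20 CPM, and it was -0.15 in set 1 and 0.34 in set 2. None of the 32 was past 2-fold, where 6.57% of all genes were more than 2-fold higher and 3.14% more than 2-fold lower. The 6 core genes had a median of -0.25 and the accessory genes 0.12 (core minus accessory -0.37, and within the library sets -0.48 and -0.11), and no core gene lay above the median of all genes. The core median was -0.62 in set 1 and 0.23 in set 2, so its side of 0 depended on the set. NDUFV1 had 24.3, 101 and 182 CPM in live FRISCR cells, against 21.8, 157 and 245 CPM in live Triton cells, and was 1.53-fold lower (1.49 to 1.58). NDUFS8 was 1.26-fold lower (1.22 to 1.29), NDUFB5 1.25-fold lower (1.20 to 1.30), and at the other end NDUFA2 was 1.42-fold higher (1.36 to 1.48), NDUFA8 1.37-fold higher (1.32 to 1.42) and NDUFB3 1.31-fold higher (1.26 to 1.37). Genes above 0 numbered 19 under total counts and in mean TPM, 15 with TMM and without the abundant rows and 14 with median-of-ratios factors, so no direction can be given for the list as a whole. By total counts, 4365 of the 7447 genes were above 0.

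In fixed cells, the contrast of FRISCR with Triton uses the same fixed Triton cells as above and is not independent of that result. By total counts 4 of the 6 core genes were higher with FRISCR and most accessory genes lower, and both directions depended on the scaling. The median log2 fold was -0.39 over the 32 genes, against 1.53 over all 7272 genes with at least 20 CPM. Of the 32, 7 were more than 2-fold higher with FRISCR, where 59.8% of all genes were, and 4 more than 2-fold lower, where 10.6% were. With TMM these counts were 0 and 22, with median-of-ratios factors 0 and 24, without the abundant rows 2 and 19 and in mean TPM 7 and 0, and 30 of the 32 lay under the all-gene median when scaled to totals, against 29 in mean TPM. For these other scalings the share of all genes past 2-fold was not computed. The median was 0.55 for core and -0.44 for accessory genes, a difference of 0.99 (1.85 in set 1, 0.38 in set 2). The core median was -0.15 without the abundant rows, -0.54 with TMM and -0.71 with median-of-ratios factors, and 1.37 in set 1 and -0.42 in set 2 by total counts. In mean TPM the core median was 1.00 and the accessory median 0.09.

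The genes that were highest with FRISCR in fixed cells were NDUFB5, NDUFV1 and NDUFB6. NDUFB5 had 62.2, 149 and 250.2 CPM in fixed FRISCR cells, against 0, 0.25 and 197 CPM in fixed Triton cells, and was 3.84-fold higher (3.61 to 4.10), with a log2 fold of 1.94 with all cells and 3.09 without fixed Triton replicate 3. NDUFV1 had 23.2, 103 and 323 CPM in fixed FRISCR cells, against 0, 0 and 169 CPM in fixed Triton cells, and was 3.78-fold higher (3.53 to 4.06), with a log2 fold of 1.92 with all cells and 3.57 without fixed Triton replicate 4. Most fixed Triton cells lay below every fixed FRISCR cell in these 2 genes. NDUFB6, a membrane subunit of the distal arm, was 2.86-fold higher (2.72 to 3.01). NDUFA3, NDUFB4 and NDUFA4 were the lowest, at 2.60-fold lower (2.49 to 2.71), 2.36-fold lower (2.31 to 2.41) and 2.21-fold lower (2.18 to 2.24). NDUFS1 was 2.51-fold higher (2.37 to 2.66) over all cells, but 8.49 and -0.33 on the log2 scale in set 1 and set 2, and 8.52 without fixed Triton replicate 6.

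Set side by side, the fixation effects differed between the preparations gene by gene. The difference of log2 folds, FRISCR minus Triton, had a median of -0.42 over the 32 genes (-0.09 in set 1, -1.01 in set 2), against 1.54 over all 8175 genes with at least 20 CPM in a group. It was 0.51 for the core genes (1.74 in set 1, -0.23 in set 2) and -0.53 for the accessory genes (-0.19 and -1.09). The extremes were NDUFV1, with log2 0.34 in FRISCR and -2.20 in Triton cells (difference 2.54, and 2.89 and 2.38 in the sets), and NDUFB4, with 0.24 and 1.72 (difference -1.48, and -1.79 and -1.22 in the sets). The difference was above 0 in both sets for 8 of the 32 genes and below 0 in both for 15. Of the 8175 genes, 5019 were above 0 in both sets and 765 below 0 in both. These differences were not tested.

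Detection in single cells followed the same lines. In fixed FRISCR cells all 32 genes had a count in each of 12 cells, in live FRISCR cells 31 of 32 had one in each of 15 cells, and in live Triton cells all 32 had one in each of 11 cells. In fixed Triton cells 25 of 32 did, comprising 3 of 6 core and 22 of 26 accessory genes, whereas 26.2% of the 4094 genes in the same range of live Triton level (41.3 to 456 CPM) had a count in all 7 cells. Of the same 4094 genes, 69.1% had a count in every fixed FRISCR cell. The share was 72.8% for live FRISCR and 86.7% for live Triton cells. Those genes were chosen by that range alone and were not matched to the members in level or length within it. Core genes had a count in a mean of 78.6% of fixed Triton cells, accessory genes in 95.1% and all genes of that range in 64.3%. A single count was enough for detection here. Some genes counted as present in all 7 fixed Triton cells were near that floor in a cell. NDUFV2, NDUFS7, NDUFA12, NDUFB3 and NDUFB6 each had a lowest fixed Triton cell of 0.232 CPM. After thinning to 1000000 counts, fixed Triton cells had counts for a median of 28 of the 32 genes (range 22 to 30), against 32 in live Triton cells. The spread over cells was wider in fixed Triton cells as well. The median coefficient of variation of CPM was 32.2% in fixed FRISCR, 30.7% in live FRISCR, 67.8% in fixed Triton and 34.4% in live Triton cells, against 52.7%, 57.5%, 139% and 53.2% over all genes in the members' CPM range. In fixed Triton cells it ran from 32.6% for NDUFC1 to 262% for NDUFS1.

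Assembly factors of the complex and genes of other mitochondrial and ribosomal complexes were taken from lists of known genes. The 15 assembly factors, which build the complex but are no part of it, had a median log2 fold of 0.19 for fixed over live FRISCR cells and -0.10 for fixed over live Triton cells, with 2 more than 2-fold higher and 6 lower in Triton cells, where 12.4% and 58.5% of all genes were. Within the library sets these medians were 0.20 and -0.16 for FRISCR cells and -1.91 and -3.45 for Triton cells, so they depended on the cells used. ACAD9, an assembly factor, had no count in fixed Triton cells, against 43.1 CPM in live Triton cells. The 38 genes of complexes II to IV and ATP synthase had medians of 0.36 and 0.79 in the same order, close to those of the 32 subunit genes, with UQCR10, a small complex III subunit, at log2 2.06 and SDHC, a membrane subunit of complex II, at -7.82 in Triton cells. The 76 mitochondrial ribosomal protein genes had medians of 0.23 and -0.09, the second being -0.67 in set 1 and 0.02 in set 2. The 81 cytosolic ribosomal protein genes had 0.25 and 1.26. None of these distances from the median of all genes was tested.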

How the data were processed

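Single H1 cells were profiled by Smart-seq2 and Nextera XT, per the labels' protocols. The authors deposited estimated counts per gene, not normalized, in a table and TPM values in another, each with 23045 rows and 45 cells. Of the nonzero counts 40.3% are not whole. Per the submitters' processing notes the genome was GRCh37 (hg19). Aligner, quantifier and annotation: not given in the sources used here.

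Counts were rounded, summed per group and divided by the summed totals (CPM). Folds carry exact 95% binomial intervals, with a floor of 3 counts over the group for a sum of 0. The background is all genes that reached 20 CPM in a group compared, and a gene was called past 2-fold. With 1 sample per group, no p-value was computed. The members and the gene lists were chosen with earlier results of these data known. The genes chosen for closer description were the core genes, the 3 accessory genes of highest TPM in live FRISCR cells and the 3 highest and 3 lowest folds of each comparison. The lowest, median and highest cell are given for some of them, and only summed or mean values for the others. Other genes were named by a rule of level and fold, apart from NDUFA9, NDUFA10, NDUFA8, NDUFA6, NDUFB7 and ACAD9, picked in some comparisons after their values were seen. Each list was taken whole, and a list of further subunits is not reported here.

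Scaling alternatives were TMM factors from edgeR 4.0.16 and median-of-ratios factors from DESeq2 1.42.0 (R 4.3.3), mean TPM, mean per-cell CPM and totals without 44 rRNA-named rows and 5 abundant rows. Splits by arm, size, implied length, pseudogene and overlap were added after the data were seen. The fold calculation was tested on simulated data. Those cells were drawn from pooled means without spread between cells, and the all-gene median was subtracted first. The simulation therefore did not cover shifts in composition or genes whose counts fell in a single cell. Depth limits precision as the intervals show, and they cover counting error only.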

Additional observations from a re-analysis of the deposited data

Results flagged for a closer look

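In the 7 fixed Triton cells, 35 measures (the 32 genes and 3 sums per cell) were examined for a cell far from the others, and 6 had one; chance flags about 1 in 20 groups of independent, normally spread values, a rate not measured for these genes, which share cells. In each case the highest cell stood far above the next. NDUFS1 had 301.1 CPM in replicate 6, with the next cell at 1.00 CPM. NDUFA9 had 363 CPM in replicate 2, with the next at 12.1 CPM. NDUFV1 had 169 CPM in replicate 4, with the next at 52.4 CPM. NDUFA8 had 299.7 CPM in replicate 1, with the next at 88.3 CPM. NDUFAB1 had 537 CPM, also in replicate 1, with the next at 245 CPM. NDUFB9, an LYR motif subunit of the distal membrane arm, had 963.5 CPM in replicate 7, with the next at 432 CPM. The 6 cases fell in 5 different cells. Groups of more than 10 cells were not examined in this way.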

How the results depend on the processing

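Of the values that describe the members as a whole, those of fixed over live FRISCR cells kept their direction under other scalings. For FRISCR over Triton in live cells the median log2 fold, 0.08 by total counts, was -0.004 by TMM, -0.032 by median-of-ratios and -0.022 without the abundant rows. For fixed over live Triton cells the median log2 fold was 1.74 by TMM, 1.92 by median-of-ratios, 0.12 by mean TPM and 1.34 without the abundant rows, and the genes past 2-fold higher were 24, 25, 2 and 22 and those lower 1, 1, 7 and 2. At 1.5-fold 18 were higher, and in set 2 alone 19. Core minus accessory was -2.09 in set 1 alone. For FRISCR over Triton in fixed cells the median was -1.48 by TMM, -1.65 by median-of-ratios and -1.10 without the abundant rows. The genes past 2-fold higher were 0, 0 and 2 and those lower 22, 24 and 19, with 0 lower by mean TPM, 12 at 1.5-fold and 7 in set 2 alone. Core minus accessory was 1.85 in set 1 alone. The difference of fixation effects was -1.42 by TMM and -1.56 by median-of-ratios. In set 2 alone the live preparation median was 0.34. At 1.5-fold, 1 gene was higher in fixed over live FRISCR cells (also 1 at 2-fold in set 2 alone) and 1 lower in live FRISCR over live Triton cells (also 1 in each set alone). Shares of all genes were computed only at 2-fold by total counts with all cells. The other counts of genes in this section therefore stand without them. The member share of TPM per cell was 1.36% in fixed FRISCR, 1.21% in live FRISCR, 1.51% in fixed Triton and 1.07% in live Triton cells. Without the abundant rows the share of counts was 1.48% in fixed Triton and 0.518% in live Triton cells, and 0.517% in live Triton set 1 alone. In FRISCR over Triton fixed cells the sign turned for NDUFA8 by median-of-ratios (-0.13), for NDUFV2 by TMM (-0.085) and median-of-ratios (-0.26) and for NDUFS1 in set 2 alone (-0.33); the cause was not tested. Leaving out each cell in turn gave medians of 0.29 to 0.35 and 0.66 to 0.78 for fixed over live FRISCR and Triton cells, and 0.04 to 0.13 and -0.48 to -0.29 for FRISCR over Triton in live and fixed cells. Core minus accessory was -0.19 to -0.03, -1.52 to -0.98, -0.43 to -0.24 and 0.82 to 1.39 in the same order. Genes past 2-fold in fixed over live Triton cells were 8 to 14 higher and 3 to 5 lower, in FRISCR over Triton fixed cells 5 to 7 higher and 3 to 4 lower, and in fixed over live FRISCR cells 0 to 1 higher. The difference of fixation effects was -0.53 to -0.27. No paired analysis was possible because replicate numbers were given in accession order and no test was made.

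The 7 fixed Triton cells limit every value that rests on them, and cells are not separate cultures.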
